A study of Rattus norvegicus with 12 samples.

Results

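CREB1, ATF1 and CREM are the transcription factors that bind the cAMP response element, a short DNA sequence in the promoters of genes that answer to cyclic AMP and calcium. Protein kinase A phosphorylates CREB1, which then recruits the histone acetyltransferases CBP, the product of Crebbp, and p300, the product of Ep300. The coactivators Crtc1, Crtc2 and Crtc3 bind CREB in a different way and enter the nucleus once calcineurin removes phosphates that salt-inducible kinases have put on them. Crem is also a target of the pathway: its gene has an internal promoter that gives rise to ICER, a short repressor that blocks the same elements. PACAP38 is a neuropeptide whose receptors raise cyclic AMP, so the measurements below follow the RNA of these 8 genes after a stimulus to their own pathway.

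The members were all probes whose gene name in the scanner files is Crem, Creb1, Atf1, Crtc1, Crtc2, Crtc3, Crebbp or Ep300. They came to 19 probes on 37 spots, out of 41012 probes and 43379 spots that are not controls. Creb1 had 5 probes, Crem, Crtc3 and Crebbp 3 each, Atf1 2, and Crtc1, Crtc2 and Ep300 1 each. The cells were PC12, a line derived from a rat adrenal pheochromocytoma that is used as a model of sympathetic neurons, and carried no transgene or deletion by the labels. The treated group received PACAP38 at 1e-07 M for 5, 10, 15, 30, 60 or 120 min, and each time point had its own control RNA of PC12 cells. The RNA of each group (n = 6) was pooled before labelling, and each pair of pools was co-hybridized on 2 arrays, the second with Cy3 and Cy5 exchanged. Both arrays hold the same pools, so a time point is 1 replicate, and its folds on both arrays show the error of the array and not of the cells. No test of PACAP38 against control was therefore possible at a single time point.

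On the 12 arrays 39.8 to 48.9% of spots had PACAP38 signal well above background and 38.4 to 49.6% had control signal above it, with 0 saturated spots. Of 10 chromaffin markers 9 were on the array, and 8 of these, among them Th, Dbh and Chga, were above background in the control RNA on all 12 arrays. Of 6 fibroblast markers, Col3a1, Lum and Pdgfrb were above background in the control RNA on none of the arrays Col1a1 on all of them, Col1a2 on 11 and Dcn on 5. Fos, the early response gene used to check the treatment, was 16.8-fold over control at 10 min.

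The probes that the results turn on are shown by the first 30 of their 60 bases, written 5′ to 3′, so that the measured parts of each transcript can be found. The Crem probes lie on chromosome 17 of rat build rn4, plus strand, and are given here with the position of the stretch shown. They start at bases 123, 1502 and 1517, in that order, of 3 different transcript records.
A_44_P372529, chr17:62830680-62830709: gccacaggtgacatgccaacttaccagatc
A_44_P149138, chr17:62836088-62836117: ccatatggacttgtagatgggtctcttaac
A_44_P988767, chr17:62837437-62837466: accttaggaatgttaacatttaaaaaacaa
For Creb1, 3 probes on chromosome 9, plus strand, show why its probes are not independent. The capitals mark the bases that the first and second share in the stretch shown, out of 52 shared in all. The third lies further along, at base 7125 of its transcript against 937 and 945 for the first and second.
A_44_P491590, chr9:63234620-63234649: aggagctaAAAGCACTTAAGGACCTTTACT
A_44_P177425, chr9:63234628-63234657: AAAGCACTTAAGGACCTTTACTgccacaag
A_44_P392701, chr9:63240219-63240248: caactgtcataatgccctttttacacagac

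The promoters were read for the element these proteins bind, TGACGTCA, which is the same on both strands, and for its core TGACG on either strand, counted only outside a full element. RefSeq promoter windows of build GRCr8, each with 250 bases before an annotated start and 50 bases from it, were found for 7 of the 8 genes. Atf1 was not matched. The full element occurred in 1.83% of all 33469 windows of this length and the core in 21.2%, full elements included. Crem has 3 annotated starts, and both downstream windows hold the full element: chr17:58984547-58984846 at base -56, and chr17:58985240-58985539 at bases -35 and 40, counted from the start as base 1. The upstream Crem window, chr17:58933816-58934115, holds the core only, at bases -241 and -6. The 3 full elements are shown in capitals with the bases around them.
Crem, base -56, chr17:58984731-58984758: gataggctggTGACGTCActgtgatgtc
Crem, base -35, chr17:58985445-58985472: ttcaaagggcTGACGTCAttacatttcc
Crem, base 40, chr17:58985519-58985539: agctgcacatTGACGTCAgct
No other window of the family held the full element. The first Creb1 window, chr9:73397259-73397558, holds the core at bases -80, -59 and 9, and the first pair is shown with the core in capitals.
Creb1, chr9:73397426-73397455: gagTGACGcggcggaggtgtagttTGACGc
The Crtc2 window, chr2:178007024-178007323, holds the core at base -95. The second Creb1 window and those of Crtc1, Crtc3, Crebbp and Ep300 do not hold these letters. These matches describe the letters only and were not tested as binding sites.

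Crem was the only gene of the family whose probes were counted as different from control. The RNA is that of whole cultures, so more RNA per cell and more cells that express a gene cannot be told apart. A probe was counted as higher when each of its arrays showed a ratio of 2 or more, and as lower with 0.5 or less, with spot p-values below 0.01, the p-value being that of the scanner software's error model for the spot. At 5, 10 and 15 min none of the 19 probes was counted, while 0%, 0.0658% and 0.0902% of all 41012 probes were counted as higher and 0%, 0% and 0.0268% as lower. At 30, 60 and 120 min the same 3 probes were counted as higher, all of them Crem, against 0.249%, 0.87% and 1.95% of all probes. None of the 19 was counted as lower at these times, against 0.102%, 0.375% and 1.53% of all probes. Among probes with an RNA above background on both arrays, of which the family had 15 at 30 min and 16 at 60 and 120 min, the shares counted as higher over the whole array were 0.594%, 1.79% and 4.24%.

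The brightest Crem probe, A_44_P149138, stayed near control up to 15 min and was far above it from 30 min on. Its PACAP38 over control ratio was 1.46 and 1.06 on the arrays of 5 min, given here and below with PACAP38 in Cy5 first and in Cy3 second. It was 0.814 and 0.869 at 10 min and 1.15 and 1.08 at 15 min. No spot p-value of these 3 time points was below 0.01. The ratio was then 3.84 and 3.21 at 30 min. The 60 min arrays gave 12.5 and 7.81, and those of 120 min 20.0 and 10.9. Every array of this probe from 30 min on lay above every array up to 15 min. Within each dye order the ratio was highest at 120 min, but the 120 min array with PACAP38 in Cy3 lay below the 60 min array with PACAP38 in Cy5. Their geometric means were 3.51-fold, 9.88-fold and 14.8-fold, and the last ranked number 68 from the top among all probes of that time point. The ratio was lower with PACAP38 in Cy3 at 5 of 6 time points, and at 120 min the arrays differed by more than 1.5 times.

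The probe nearest the start of its transcript, A_44_P372529, followed the same course. It measured 1.31 and 1.02 at 5 min, 1.03 and 0.997 at 10 min, then 1.28 and 1.17 on the arrays of 15 min. From 30 min the values were 3.97 and 3.71, those of 60 min 11.6 and 10.0, and those of 120 min 21.0 and 15.5. Its mean fold was 3.84, 10.8 and 18.1 at these last time points. The arrays up to 15 min and those from 30 min on did not overlap on this probe either.

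The third Crem probe, A_44_P988767, was much dimmer, with PACAP38 RNA above background on 7 of 12 arrays and control RNA on 4. At 5 and 10 min neither RNA was above background, and at 15 min only the PACAP38 RNA was, on 1 array, so no fold is given. At 30 min the PACAP38 RNA was above background on both arrays and the control on neither, which puts the fold at least 5.81-fold higher as a mean of both arrays. The arrays themselves gave 3.73 and 15.2, the first of them below that bound. At 60 min, with both RNAs measured, the ratio was 21.5 and 20.4, and at 120 min it was 30.1 and 31.4. The means of these arrays were 21.0-fold and 30.7-fold.

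**Figure D1:**
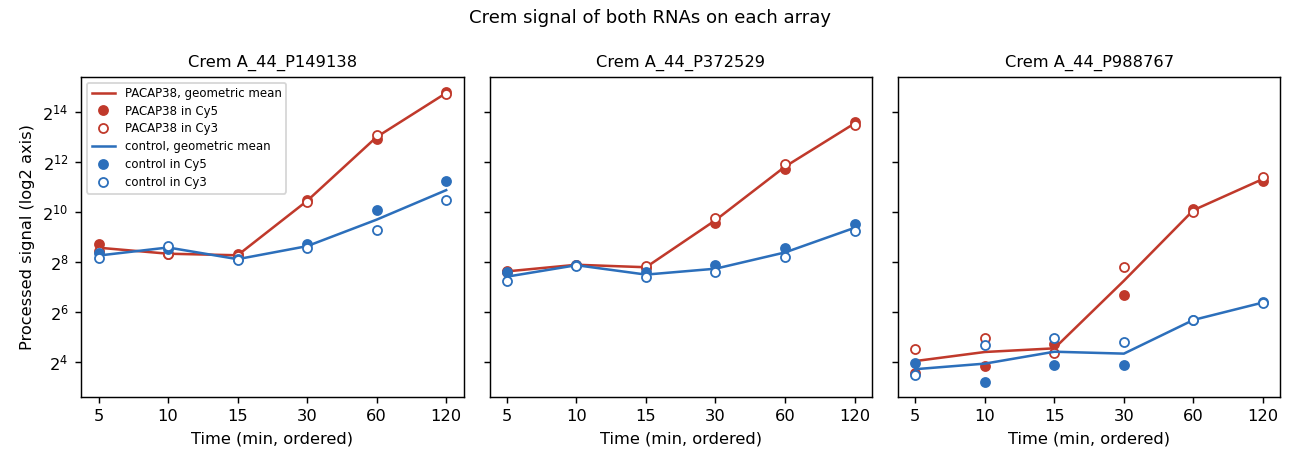
Processed signal (log2 axis) of the PACAP38 RNA (red) and the control RNA (blue) on each array against time in minutes, for the 3 Crem probes. Filled points are Cy5, open points Cy3, and lines are the geometric mean of both arrays. PACAP38 and control lie together to 15 min and separate from 30 min on, and the control line of A_44_P149138 also lies higher at 120 min (1436 and 2445) than at 5 min (289 and 324).

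The separate channels show that the control RNA did not stay level. On A_44_P149138 the processed PACAP38 signal was 420 in Cy5 and 344 in Cy3 at 5 min, against 28751 and 26667 at the end. The control signal started at 289 in Cy3 and 324 in Cy5, lay at 625 and 1095 after 60 min, and reached 1436 and 2445 by 120 min. Levels were then normalized between arrays by Aquantile, which makes the distribution of the mean log2 brightness of both channels alike and keeps the ratios. After it the PACAP38 level was 47.7-fold and the control level 4.01-fold higher at 120 than at 5 min. For A_44_P372529 these figures were 39.0-fold and 2.50-fold. Among the 15880 probes with an RNA above background at all time points, 0.164% had a control level higher at 120 than at 5 min by at least as much as A_44_P149138, and 0.831% by at least as much as A_44_P372529. The median over these probes was 0.976-fold, and it was 1.00-fold over the 525 of them that were counted as higher at 120 min. The control level of Nr4a2, a nuclear receptor gene counted as higher from 10 min on, was likewise 7.95-fold higher at 120 min, whereas that of Sik1, which encodes a salt-inducible kinase, was 0.580-fold. The cause of the change in the control RNA was not tested.

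The ratio to the control of the same time point depends on that change. Set against the control level of 5 min, the PACAP38 level of A_44_P149138 was 4.74-fold, 21.8-fold and 59.3-fold at 30, 60 and 120 min. This reference was chosen after the data were seen and compares different arrays and slides.

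Linear fits with limma (two-sided) of the log2 ratio on log2 time over the 6 time points gave the family a test across time. Per doubling of the time, the log2 ratio of A_44_P372529 was higher by 1.01 (SE 0.13, adjusted p = 0.0452), that of A_44_P149138 by 0.96 (SE 0.15, adjusted p = 0.0573) and that of A_44_P988767 by 1.20 (SE 0.18, adjusted p = 0.0541). Only A_44_P372529 passed the adjusted threshold of 0.05, among 16 member probes tested, while 0.525% of the 20203 probes tested passed it as rising and 0.203% as falling. Without the 10, 15, 30, 60 or 120 min time point its slope stayed between 0.96 and 1.01, with an adjusted p in limma from 0.0612 to 0.213 on the 5 remaining points, and without the 5 min time point the slope was 1.25 and the adjusted p 0.0297. Over all alternatives the adjusted p ran from 0.00954 with time in minutes to 0.894 with slide as a block. The slope of A_44_P988767 includes time points at which neither RNA was above background.

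The Crem probes were compared with each other at the time points where both could be read. A_44_P149138 minus A_44_P372529 was -0.14 in log2 ratio (SD 0.14 over 6 time points), below 0 at 5 of 6, with an exact sign-flip permutation p of 0.0625 and 0.188 after adjustment over the 3 pairs. A_44_P988767 had both RNAs above background on both arrays only at 60 and 120 min, and its value of 30 min is a bound. The log2 ratio of A_44_P149138 minus that of A_44_P988767 was -1.09 and -1.06 at these 2 time points, and A_44_P372529 minus A_44_P988767 was -0.96 and -0.77. With 2 time points the smallest exact sign-flip p is 0.5, so these pairs have no usable test. After normexp background correction with an offset of 50 and loess, all 3 mean differences changed sign. They were 0.10 for the first pair and 0.90 and 0.69 for the pairs with A_44_P988767. The control signal of A_44_P988767 was only 51.9 and 50.7 at 60 min and 81.3 and 85.1 at 120 min. An offset of that size shrinks the ratio of so dim a probe, so the change of sign in its pairs cannot decide the order. Without a usable test for these pairs, the arrays do not settle the order of the Crem probes.

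**Figure D2:**
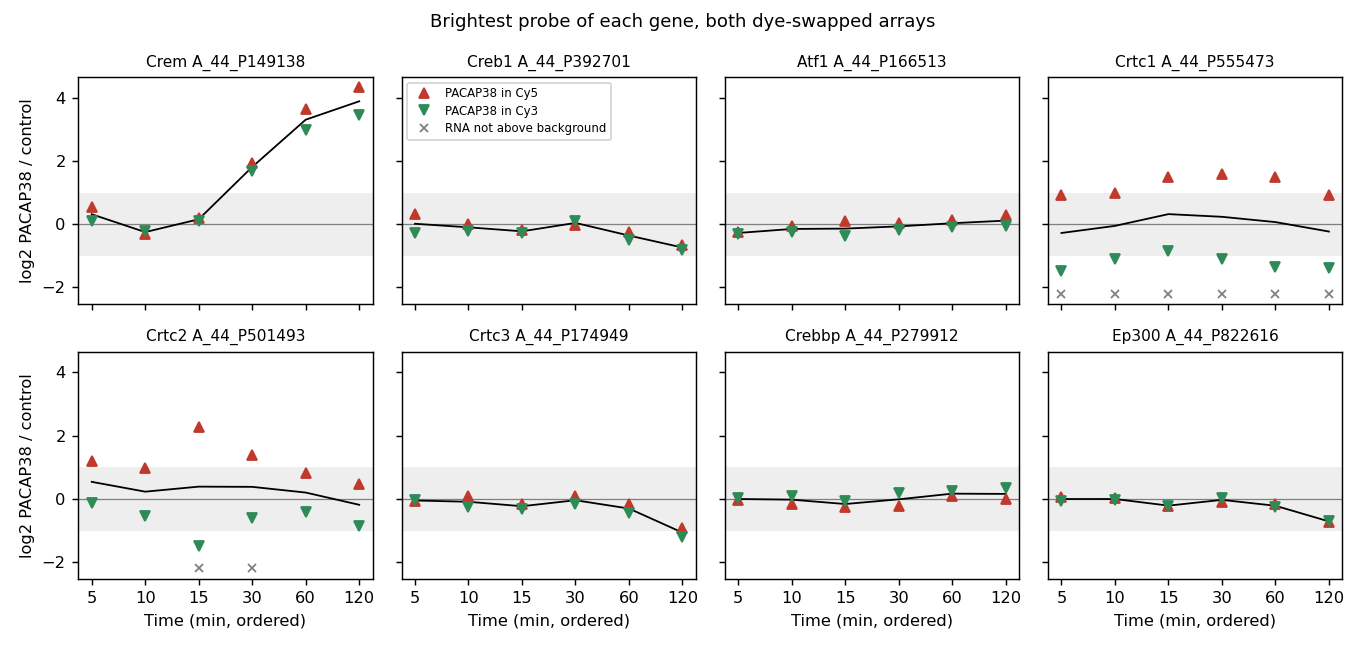
Log2 ratio of PACAP38 to control against time in minutes for the brightest probe of each of the 8 genes, with triangles for the 2 dye-swapped arrays and a line for their mean. The grey band marks ratios within 2-fold of control and grey crosses mark time points where an RNA was above background on neither array. Crem leaves the band from 30 min, Creb1, Crtc3 and Ep300 dip at 120 min, and the arrays of Crtc1 and Crtc2 lie apart by dye.

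Creb1, the factor that gives the family its name, had mean ratios between 0.829 and 1.11 from 5 to 30 min on the 4 probes that were above background throughout, although the arrays of A_44_P554741 at 5 min lay on opposite sides of 1, with 0.607 for PACAP38 in Cy3. At 120 min these probes did not give the same value. The brightest, A_44_P392701 at base 7125, measured 0.633 and 0.569 with spot p-values of 0.00198 and 0.000186, and A_44_P554741 at base 3318 measured 0.721 and 0.693. The overlapping probes at bases 937 and 945 measured 1.01 and 1.47 for A_44_P491590 and 0.815 and 1.60 for A_44_P177425. At 120 min both arrays of the probes further along the transcript lay below both arrays of the overlapping probes. The probes belong to 2 transcript records, and the difference between them was not tested.

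A_44_P491590 was printed on 10 spots of each array, which shows how precise a single array is. Of these, 6 to 10 carried no outlier flag, and the SD of their log2 ratios was between 0.06 and 0.18. At 120 min it was 0.17 around a mean of 0.02 with PACAP38 in Cy5 and 0.086 around 0.55 with PACAP38 in Cy3. The arrays thus differed by more than their spots did, and at all 6 time points the ratio of this probe was lower with PACAP38 in Cy5. The dim probe A_44_P568560 at base 5828 had PACAP38 RNA above background on 2 of 12 arrays, both with PACAP38 in Cy5, where its ratio was 1.05 at 15 min and 0.723 at 60 min.

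**Figure D3:**
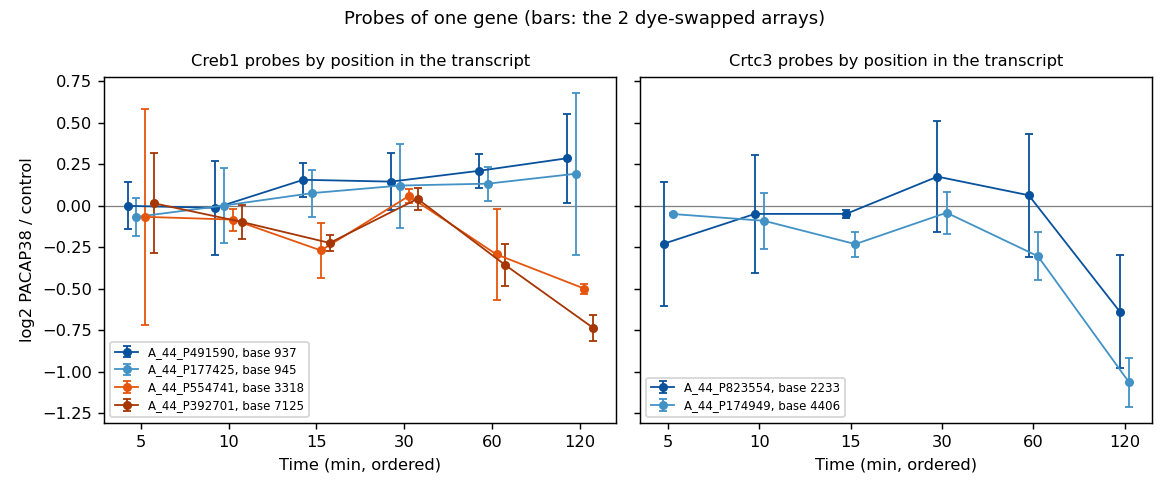
Log2 ratio of PACAP38 to control against time in minutes for the Creb1 and Crtc3 probes with PACAP38 RNA above background on at least 11 of 12 arrays, labelled by the base at which they start in their transcript. Points are means of the 2 dye-swapped arrays and bars reach to both arrays. At 120 min the Creb1 probes at bases 3318 and 7125 lie below 0 and those at bases 937 and 945 do not, and both Crtc3 probes lie below 0.

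Atf1, the close relative of Creb1 that pairs with it on DNA, stayed within 1.5-fold of control on both probes and all 12 arrays. The brightest probe, A_44_P166513, ran from 0.767 to 1.21 over the arrays and A_44_P718305 from 0.726 to 1.43. The 60 bases of A_44_P166513 are placed at chr7:138979465-138995362, a stretch of 15898 bases that holds an intron, and those of A_44_P718305 at chr7:139013490-139013549.

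Of the CRTC coactivators, only Crtc3 was bright enough to be followed. A_44_P174949 at chr1:136761558-136761617, minus strand, ran from 0.808 to 1.06 on the arrays of 5 to 30 min. It measured 0.895 and 0.732 at 60 min and 0.529 and 0.431 at 120 min, with spot p-values of 4.03e-05 and 2.4e-07. Its mean of 0.478 was the lowest mean of the 19 probes at any time point, and it was not counted because the array with PACAP38 in Cy5 missed the limit of 0.5. A_44_P823554, nearer the start of the same transcript, measured 0.812 and 0.506 at 120 min. The remaining Crtc3 probe, A_44_P142368, had PACAP38 RNA above background on none of the arrays.

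Crtc1 and Crtc2 were too dim to follow closely. The Crtc1 probe, A_44_P555473 at chr16:19528162-19528221, was above background for neither RNA on any of the 12 arrays, and its ratio was above 1 with PACAP38 in Cy5 and below 1 with PACAP38 in Cy3 at all 6 time points. The Crtc2 probe, A_44_P501493 at chr2:182502449-182502631, had PACAP38 RNA above background on 6 arrays and control RNA on 5. Both RNAs were measured on at least 1 array at 4 of 6 time points, with mean folds from 0.878 to 1.45 that also take in arrays below background. Its arrays also lay on opposite sides of 1 at all 6 time points, as at 15 min with 4.79 and 0.357. At this signal a small change or a fall of either gene could not be read.

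The acetyltransferase genes Crebbp and Ep300, whose proteins join CREB to the transcription machinery, were both followed on a bright probe. Crebbp on its 10-spot probe A_44_P279912, chr10:11723639-11723698, had a ratio between 0.834 and 1.26 on all 12 arrays, with an SD between spots of 0.03 to 0.082 in log2. The Ep300 probe A_44_P822616, chr7:120008651-120008710, measured 0.864 and 0.861 at 15 min and 0.605 and 0.616 on the arrays of 120 min, where its spot p-values were 0.000732 and 0.00107. The 60 min arrays gave 0.886 and 0.835. Its arrays of 120 min lay below all its other arrays. The dimmer Crebbp probes had PACAP38 RNA above background on 4 of 12 arrays each. On A_42_P829251 the arrays went opposite ways at all 6 time points, as at 10 min with 9.36 and 0.328, so that a single array would have given a large change in either direction.

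With a fold limit of 1.5 in place of 2 and the same p-value limit, 3 member probes were counted as lower at 120 min, 1 each of Creb1 (A_44_P392701), Crtc3 (A_44_P174949) and Ep300, against 3.85% of all probes and 8.5% of those with an RNA above background on both arrays. No further member was counted as higher at that limit, which took in 3.03% of all probes. Between 60 and 120 min, which share a slide, the step in log2 ratio was -0.76 on both arrays of A_44_P174949, -0.55 and -0.44 on those of Ep300, and -0.43 and -0.33 on those of A_44_P392701. In the limma fit the slopes of these probes were -0.18 (SE 0.06, adjusted p = 0.136), -0.13 (SE 0.05, adjusted p = 0.137) and -0.14 (SE 0.05, adjusted p = 0.131) per doubling of the time, and none passed the threshold. With time in minutes in place of its log2, limma called the slopes of Crtc3 (adjusted p = 0.0111), Ep300 (adjusted p = 0.0181) and Creb1 (adjusted p = 0.0215) as falling, together with 16.2% of the probes tested, and 10.2% as rising. Without the 120 min time point the slopes on log2 time were -0.05 for Crtc3, -0.05 for Ep300 and -0.07 for Creb1 (adjusted p = 0.623 to 0.653 in limma), so the sizes above rest on that time point.

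Averaged over the whole course, the brightest probes of Creb1, Atf1, Crtc3, Crebbp and Ep300 had intervals that included 0. The mean log2 ratio over the 6 time points was -0.23 for Creb1 (95% interval -0.48 to 0.03), -0.08 for Atf1 (-0.23 to 0.06), -0.30 for Crtc3 (-0.63 to 0.04), 0.02 for Crebbp (-0.12 to 0.16) and -0.20 for Ep300 (-0.44 to 0.04), each on the brightest probe. The interval excluded 0 for Creb1 A_44_P554741, with -0.19 (-0.38 to -0.0058), and for the dim Crtc2 probe, with 0.26 (0.03 to 0.48), both with an adjusted p of 0.531 in limma. Without the 120 min time point the means of the brightest probes were -0.13 for Creb1, -0.12 for Atf1, -0.14 for Crtc3 and -0.094 for Ep300. With normexp and loess they were -0.12, -0.04, -0.15 and -0.17 in the same order. The means also moved with the dye. On the arrays with PACAP38 in Cy5 and in Cy3 alone they were -0.0027 and -0.38 for A_44_P554741 and 1.18 and -0.67 for Crtc2, whose sign turned. For the brightest probes they were -0.13 and -0.33 for Creb1, 0.04 and -0.21 for Atf1, -0.19 and -0.41 for Crtc3, -0.10 and 0.14 for Crebbp, and -0.19 and -0.21 for Ep300, and with PACAP38 in Cy3 the intervals of Creb1, Atf1 and Crtc3 lay below 0. The overlapping Creb1 probes A_44_P491590 and A_44_P177425 went the other way, above control at every time point with PACAP38 in Cy3. For A_44_P149138 of Crem the mean over both dye orders was 1.54 (0.09 to 2.98, adjusted p = 0.531 in limma). No probe of the 20203 passed the adjusted threshold in this limma fit, in which time points of unequal treatment stand as replicates, and 1845 had an unadjusted p below 0.05.

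The genes around the family were taken from lists, described by counts and medians. The lists were drawn up with earlier results of these data known, so their counts and medians are no independent test. Of 19 textbook CREB target genes on 25 probes, 4, 6, 8, 10 and 11 genes were counted as higher from 10 to 120 min, 0 at 5 min, and none as lower at any time. At 120 min these were 13 of the 25 probes, against 1.95% of all probes. The median log2 ratio of all 25 probes at 120 min, dim ones included, was 1.03, against 0.02 over the 40997 probes with a ratio at that time. The gene with the largest fold was Nr4a3, which encodes a nuclear receptor. Its brightest probe, A_44_P654444, had the control RNA above background on both arrays of 120 min and measured 122-fold there. The other Nr4a3 probes counted at 120 min, with that RNA above background on 1 of 2 arrays, measured 449-fold on A_43_P12619 (737 and 274 on its arrays) and 32.3-fold on A_43_P11932 (23.2 and 44.8). Nr4a2 was 33.8-fold, Dusp1, a MAP kinase phosphatase gene, 23.2-fold, Fos 21.3-fold and Junb 20.3-fold at their highest. Crem was first counted at 30 min, as were Sik1 and Nfil3. Fos, Junb, Nr4a1 and Nr4a2 were first counted at 10 min and Nr4a3 and Dusp1 at 15 min, while Per1 and Vgf followed at 60 min and Scg2 at 120 min.

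In both lists of genes that act on CREB and CRTC, 2 genes were counted as higher and none as lower at any time. The counts of the lists that follow stand against 1.95% of all probes counted as higher and 1.53% as lower at 120 min, and 4.24% as higher among probes with an RNA above background on both arrays. Of 18 genes for kinases and phosphatases acting on CREB, 2 were counted as higher: Mapkapk2, with 2.54-fold and 6.02-fold at 60 and 120 min, and Camk4, with 8.64-fold at 120 min and with the control RNA above background on 1 of 2 arrays. They were 2 of 35 probes, of which 23 were above background. Of 8 genes that regulate where CRTC proteins lie in the cell, Sik1 was 3.98-fold, 12.6-fold and 16.9-fold at 30, 60 and 120 min, and Sik3 was 4.03-fold at the last, which made 2 of 18 probes. Sik1 also stands among the CREB targets. Stk11, which encodes the kinase that activates them, and the calcineurin genes were not counted.

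Of 16 other ATF and CREB family genes, Atf3 was counted as higher from 15 min and was 15.2-fold, 19.6-fold and 16.0-fold at 30, 60 and 120 min. Crebl2 was counted as lower at 120 min, with 0.466 and 0.344 on its arrays, and with its PACAP38 RNA below background on both the bound is at least 1.998-fold lower. At 120 min this was 1 probe in each direction of 25. Of 10 genes for other acetyltransferases and partners of CBP and p300, only Cited2, whose protein competes for a domain of CBP and p300, was counted, on 3 of the list's 15 probes at 120 min. On A_44_P1027846 it was 2.74-fold, 4.05-fold and 7.70-fold at 30, 60 and 120 min.

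The genes whose course lay closest to that of Crem were found by the root mean square difference in mean log2 ratio to A_44_P149138 over the 6 time points. The second bright Crem probe, A_44_P372529, lay at 0.19. The nearest other genes were Syt4, a synaptotagmin of secretory vesicles, at 0.25, Sik1 at 0.25, an mRNA sequence without a gene symbol (FQ232397) at 0.34, Cwc25, which is associated with the spliceosome, at 0.37, and Plk2, a polo-like kinase gene, at 0.39. At 120 min Syt4 was 15.8-fold, Sik1 16.9-fold, and the other genes 13.5-fold to 20.6-fold over control, against 14.8-fold for Crem.

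**Figure D4:**
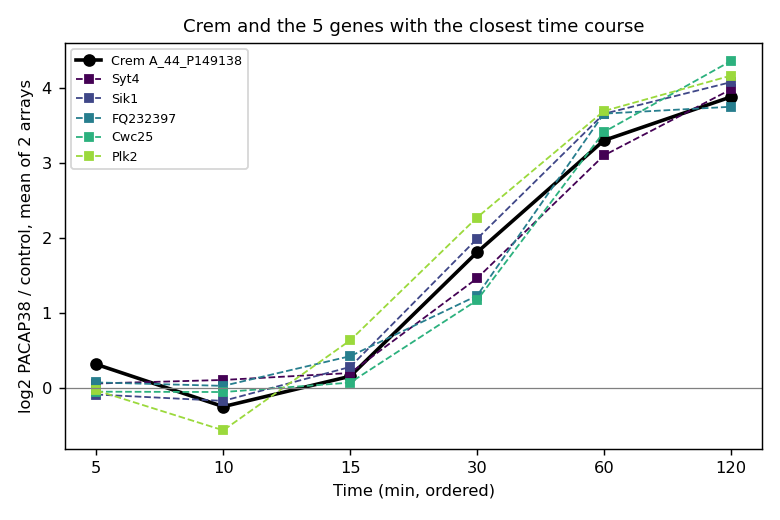
Mean log2 ratio of PACAP38 to control of both arrays against time in minutes for the brightest Crem probe (black) and the 5 genes with the smallest root mean square difference from it. All lie near 0 at 5 min and between 13.5-fold and 20.6-fold at 120 min.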

How the data were processed

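RNA of PC12 cells was measured on 12 Agilent whole rat genome arrays with 2 colours, 2 dye-swapped arrays for each of 6 time points, on 3 slides (5 and 10, 15 and 30, 60 and 120 min). The authors made the processed Cy3 and Cy5 intensity values with Agilent Feature Extraction, 12.0.3.1 by the file headers and 11.0.1.1 by the submitters' processing notes: as deposited they are background-subtracted and LOWESS dye-normalized. The deposited files also hold unnormalized mean and background intensity, spot p-values of the log ratio, flags, and a table of log10 ratios of Cy5 over Cy3 by the authors, which matched the processed intensities.

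Ratios of PACAP38 to control were turned by dye. Outlier-flagged spots were left out and spots of 1 probe averaged. Counted probes had ratios of 2 or more, or 0.5 or less, and a median spot p-value below 0.01, on each array. Lower bounds used channel levels after Aquantile normalization: the bright RNA's mean against the dim probe's own level or, where that was lower, the faintest level well above background on that array. Slopes on log2 time and means were fitted with limma 3.58.1 in R 4.3.3 over the 6 dye-averaged time points, for probes with an RNA well above background on both arrays of some time point, with Benjamini-Hochberg adjustment over all of them. The fits were also run on simulated data with 200 changed probes. Residuals there were shuffled over time points, so that run cannot speak to slide effects. Other steps used Python 3.11.15, pandas 2.3.3, numpy 2.4.6 and matplotlib 3.10.9.

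The alternatives were 1 array alone, normexp (offset 50) with loess or median centring, the deposited table of ratios, other limits, filters and probes, a slide block, time in minutes, and each time point omitted in turn. Loess and median centring below name these normexp settings, which share the same background correction and offset. Members, lists and tests were chosen with earlier results of these data known. Named genes were all member probes, up to 5 counted genes of a list by fold, the 5 genes closest to the brightest Crem probe, and Fos. Nr4a1, Nfil3, Per1, Vgf, Scg2, Stk11, Th, Dbh, Chga and the fibroblast markers were named after their values were seen. A gene with several probes is given by its brightest unless a probe is named. The number of arrays limits the precision.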

Additional observations from a re-analysis of the deposited data

Results flagged for a closer look

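The brightest Crem probe lay above control on both arrays of 120 min, with a mean log2 ratio of 3.89, and below control on both arrays of 10 min, with -0.25. No test of this difference was possible with 1 replicate per time point, so it was not tested, and the spot p-values of 10 min were 0.157 and 0.335. Crem A_44_P372529 differed between time points in the limma fit, with a slope of 1.01 per doubling of the time (adjusted p = 0.0452). The call was lost with slide as a block (adjusted p = 0.894), with loess, with median centring, without the filter on dim probes, on either array alone, and without any time point but that of 5 min (0.0612 to 0.213).

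The 10-spot Crebbp probe A_44_P279912 lay above control on both arrays of 60 min (mean log2 ratio 0.17) and below it on both arrays of 15 min (-0.16). This difference was not tested either, and no spot p-value of these arrays was below 0.01.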

How the results depend on the processing

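The 3 Crem probes were counted at 60 and 120 min under all alternatives that kept every probe. With the brightest probe of each gene the count was 1 at 30, 60 and 120 min, it was 2 at 30 min with loess or with both RNAs required above background, 1 there with median centring, and with a fold limit of 1.5 it was 6 at 120 min. On 1 array alone it ran from 0 to 1 at 5 and 10 min, was 1 on either array at 15 min, and ran from 3 to 4 at 30 and 60 min and from 4 to 5 at 120 min, both directions together. Beside Crem, the array with PACAP38 in Cy5 of 120 min counted the dim Crebbp A_42_P829251 as higher, and the other array counted it and Crtc3 A_44_P174949 as lower. The Crem fold at 120 min was 12.25 with loess and 10.54 with median centring, the latter below either single array. It was 10.9 and 20.0 on the single arrays, 30.7 on A_44_P988767 and 59.3 against the control RNA of 5 min.

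The Crem slope (A_44_P149138) passed the threshold among probes above background at all time points (0.96, adjusted p = 0.0384), with time in minutes (0.0364 per minute, adjusted p = 0.0131) and without the 5 min time point (1.25, adjusted p = 0.0297). It ran from 0.89 to 1.25 with 1 time point left out and from 0.89 to 1.03 on 1 array alone. With slide as a block it was 0.557 (adjusted p = 0.894). With loess and median centring it was 0.88 and 0.83, and the slope of A_44_P988767 was 0.64 and 0.62. Over all probes 147 slopes passed, against 29 with loess, 1 with median centring, 3 and 29 on the single arrays, 0 without a filter, 542 above background at all time points, 0 with slide as a block, 5335 with time in minutes, and 0 to 153 with 1 time point left out. The means that passed were 2309 and 3531 on the single arrays and 0 to 15 with 1 time point left out. The causes were not tested. The deposited ratios gave the same counts.

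With median centring the slope of Atf1 was -0.0035 and that of Crebbp -0.033. The mean was 0.044 for Atf1 and -0.10 for Crebbp with PACAP38 in Cy5 alone, and for Crebbp it ran from -0.0095 to 0.056 with 1 time point left out, below 0 without the 60 min (-0.0095) or the 120 min (-0.0079) time point. The differences between Crem probes turned round with normexp and loess (0.10, 0.86 and 0.63) and with normexp and median centring (0.11, 0.83 and 0.60). The values of both pairs with A_44_P988767 there include its 30 min bound. At 60 and 120 min alone, chosen after seeing the data, they were -1.07 and -0.86, and turned round to 0.90 and 0.69 with loess and to 0.88 and 0.67 with median centring. Both settings add the same offset, which shrinks the ratio of the dim A_44_P988767, so these turns cannot decide the order of the probes. No analysis paired by replicate culture was possible because the replicate numbers mark the dye order of the same pools. Signal over background limits Crtc1, Crtc2 and the dim probes.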

Other observations

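A further probe, A_43_P15436, is described as E1A binding protein p300 in the scanner files, but its name field holds a transcript identifier, so it was not a member. Neither RNA was above background on it at any of the 6 time points, and no fold is given.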
